A study of Mus musculus with 18 samples.

Results

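The mRNAs of translation factors and aminoacyl-tRNA synthetases were followed through acRIP-seq peak lists of the mouse hippocampus. acRIP-seq pulls down RNA fragments with an antibody against N4-acetylcytidine (ac4C), an acetylated cytidine, and a peak is a stretch of an mRNA where such fragments were enriched. The members were chosen by gene name, as every listed mRNA of the eukaryotic initiation factors (Eif), the elongation factors (Eef), the release factors (Etf1, Gspt) and the aminoacyl-tRNA synthetases (a one-letter amino acid code followed by ars or ars2, and Eprs), with Aimp for the synthetase scaffold. By this rule 42 of the 4922 mRNAs with a listed peak were members. The RefSeq gene table holds 110 protein-coding symbols that the rule covers, and 37.3% of them had a peak, against 21.8% of all protein-coding genes. No Aimp mRNA had a listed peak, nor did Eif4e, the Eif4a helicases or Eef2k. A missing peak is not a measurement of no ac4C, since a peak also needs enough RNA of that gene.

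Total RNA came from the hippocampus of 3 5xFAD samples and 3 WT samples, all from mice aged 3 months. 5xFAD mice carry transgenes for human APP with the Swedish, Florida and London mutations and for mutated human PS1, a presenilin. APP is under the neuronal Thy1 promoter, so that its transgene RNA is made mainly in neurons. The controls were WT mice without the transgenes, and the model was made on a C57BL/6J background. The methods name female mice in one place and littermates of both sexes in another, and the labels give no sex and no animal for each replicate, so p-values measure the spread between these samples only.

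Protein synthesis starts when the eIF4F complex binds the cap of an mRNA, eIF3 joins it to the small ribosomal subunit, and eIF2 brings the initiator tRNA. eEF1A then delivers charged tRNAs, eEF2 moves the ribosome on, and eRF1 with eRF3 ends the chain at a stop codon. The synthetases load each tRNA with its amino acid, in the cytosol or, for most genes named with a final 2, in mitochondria. In neurons these factors also serve local synthesis near synapses, where the eIF4E-binding proteins and eIF2 phosphorylation are the best-known brakes.

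The value of a peak is its listed fold enrichment (FE), which the methods define as the antibody signal less the IgG signal over the input. Peaks on the same mRNA were added to give its summed FE. A genotype counted as having an mRNA or a region when 2 or more of its 3 samples listed a peak there. The lists gave 3921, 3734 and 3881 peaks in the 5xFAD samples and 4151, 4558 and 4458 peaks in the WT samples, with no read counts, so the sequencing depth behind them is unknown. Lists of 1 genotype resembled each other far more than those of different genotypes. Any 2 5xFAD lists shared 2264 to 2392 peaks with identical ends, any 2 WT lists 2554 to 2800, and a 5xFAD list shared only 194 to 246 with a WT list. For member peaks these numbers were 21 to 25, 25 to 29 and 2 to 4. The part of library preparation or peak calling in that split was not tested. Peaks on marker mRNAs were set beside this as a check of the tissue: at least 2 samples had a peak on 6 of 12 neuronal markers in 5xFAD and 8 in WT, on 4 of 6 astrocyte markers in 5xFAD and 5 in WT, on 3 of 5 oligodendrocyte markers in 5xFAD and 2 in WT, on 1 of 6 microglial markers in 5xFAD and 2 in WT, on 1 of 3 endothelial markers in both, on 0 of 4 choroid plexus markers in 5xFAD and 1 in WT, and on neither of 2 haemoglobin mRNAs. A peak is no expression level, so this gives no cell type makeup. In bulk tissue, fewer cells of a type and less modified RNA per cell cannot be told apart.

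Of the 42 members, 36 were listed in 2 or more samples of one genotype. 12 of these 36 were found in 5xFAD only (33.3%, against 34.6% of all 4493 such mRNAs), 11 in both genotypes (30.6%, against 24.9%) and 13 in WT only (36.1%, against 40.4%). The split of the members was thus near that of all mRNAs. 8 members (19.0%) had a peak in all 3 samples of 5xFAD and none of WT, and 12 (28.6%) in all 3 of WT and none of 5xFAD. Over all listed mRNAs these shares were 23.3% and 26.7%. A 5xFAD sample had 21 to 24 member mRNAs with 32 to 36 peaks, and a WT sample 25 to 27 with 41 to 43 peaks, which was 0.857% to 0.918% of the peaks of a 5xFAD sample and 0.9% to 0.988% of those of a WT sample.

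**Figure D1:**
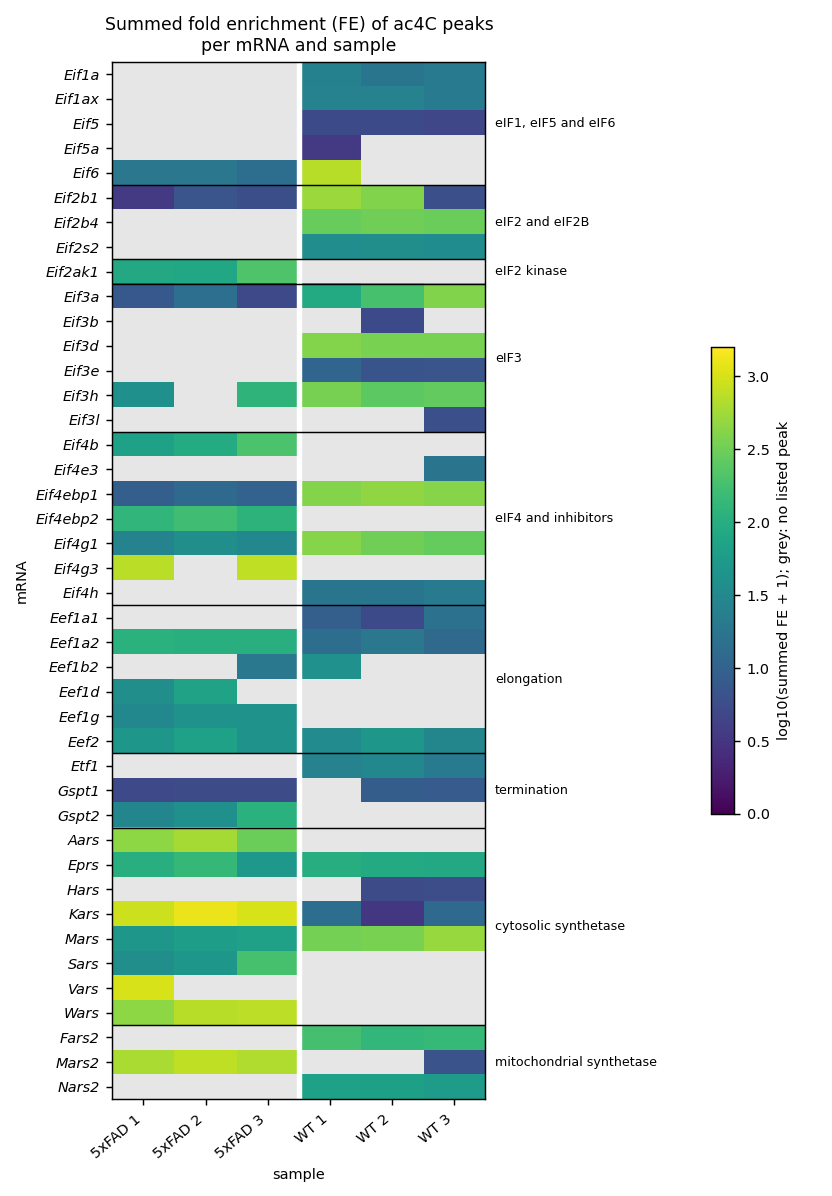
Summed FE of each of the 42 member mRNAs (rows, grouped by role) in the 3 5xFAD and 3 WT samples (columns), on a log10(FE + 1) colour scale, with grey for no listed peak. Members of eIF2 and eIF3 were mostly coloured in the WT columns, and Wars, Aars, Mars2 and Kars stood out in the 5xFAD columns.

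Among the 11 members with peaks in both genotypes, limma called 2 as higher and 4 as lower in 5xFAD (adjusted p under 0.05 and at least a 2-fold change). Kars and Eef1a2 rose, and Eif4ebp1, Eif3a, Eif4g1 and Mars fell. Over all 1121 mRNAs of both genotypes, 20.8% were called higher and 32.3% lower. The median log2 fold change was -2.75 over the 11 members and -0.47 over all. Median centring used the median of each sample over the mRNAs with a peak in every sample. It moved all log2 fold changes by 0.86 upwards, to a median of 0.39 over all mRNAs of both genotypes. The split of all calls became 344 higher and 279 lower, against 233 higher and 362 lower without it. Each of these 6 members stayed called in its direction.

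**Figure D2:**
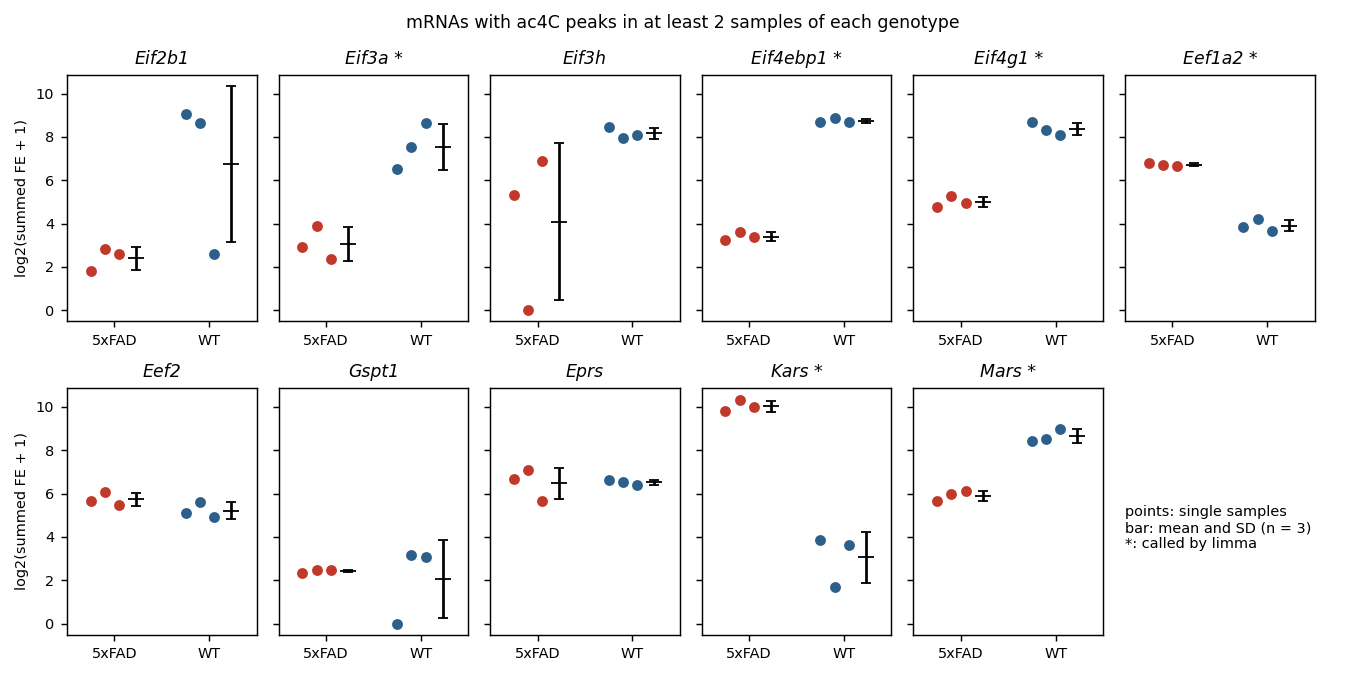
Summed FE on a log2(FE + 1) axis for the 11 members with peaks in both genotypes, with a point for each of 3 5xFAD samples (left) and 3 WT samples (right), the mean with SD beside them and a star for a limma call. Kars and Eef1a2 are higher in 5xFAD, Eif4ebp1, Eif3a, Eif4g1 and Mars are lower, and 1 sample stands apart in Eif2b1, Eif3h and Gspt1.

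Initiation begins with the factors around eIF2. eIF2 carries the initiator tRNA, and eIF2B, a guanine nucleotide exchange factor of several subunits, recharges it with GTP. Of the 3 listed mRNAs of these complexes, 2 were found in WT only and 1 in both genotypes. Over all mRNAs these shares were 40.4% and 24.9%, and so few members allow no reading against them. Eif2b4, the delta subunit of eIF2B, had an FE of 285, 320 and 306 in the WT samples and no peak in 5xFAD (exact permutation test, two-sided, p = 0.1, the smallest that 3 samples against 3 allow). Peaks in all 3 samples of 1 genotype and none of the other fix this p, here and below, so it adds no support. Its peak was only 13 bases long and sat at the 5′ edge of exon 12 of 13 (chromosome 5, 31188082 to 31188094, mm10, minus strand). The exon is shown because so strong a value rested on so short a stretch, with the 13 peak bases in capitals:
Eif2b4: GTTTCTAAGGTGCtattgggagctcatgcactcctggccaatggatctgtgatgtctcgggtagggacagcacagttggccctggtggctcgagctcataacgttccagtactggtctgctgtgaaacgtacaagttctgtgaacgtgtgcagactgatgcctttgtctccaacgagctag
Eif2s2, the beta subunit of eIF2, had a peak in its 3′ untranslated region (UTR) with an FE of 36.1, 36.6 and 35.1 in WT and none in 5xFAD (exact p = 0.1). The 3 WT values lay close together, with an SD of 0.748.

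Eif2b1, the alpha subunit of eIF2B, had a summed FE of 2.48, 6.07 and 4.95 in the 5xFAD samples and 524, 396 and 5.09 in the WT samples. WT replicate 3 lay in the range of the 5xFAD samples, since it had no peak past the end of the coding sequence (chromosome 5, 124570845 to 124571082, exon 9 of 9), where WT replicates 1 and 2 had FE 518 and 396. The log2 fold change was -4.36 with an SE of 1.85, and limma did not call it (adjusted p = 0.0999). Without WT replicate 3 it was -6.44 and called (adjusted p = 0.000413). All 3 peaks of 5xFAD had a listed false discovery rate (FDR) of 100%.

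Eif2ak1, the heme-regulated kinase that phosphorylates eIF2 and so slows initiation, was the only one of the 4 eIF2 kinases with a listed peak, and it had it in 5xFAD alone. Its summed FE was 83.8, 82.0 and 207 in the 5xFAD samples, with no peak in WT (exact p = 0.1). The peaks filled the end of exon 7 and the whole of exon 8 (63 and 58 bases), which meet in the spliced mRNA, and 5xFAD replicate 3 was the highest in both.

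eIF3, the large complex that links the mRNA to the small subunit, had 6 listed members, of which 0 were found in 5xFAD only, 2 in both, 2 in WT only and 2 in a single sample. Over all mRNAs the shares were 34.6%, 24.9% and 40.4%, and so few members allow no reading against them. Eif3a, its largest subunit, had a summed FE of 6.66, 13.9 and 4.08 in the 5xFAD samples and 89.95, 183 and 393 in the WT samples, with no overlap. It fell by 4.49 on the log2 scale (SE 0.69, limma adjusted p = 0.00327). Both genotypes had a peak in the last exon (chromosome 19, 60762183 to 60762304), at FE 6.66, 4.70 and 4.08 in 5xFAD and at 83.3 and 95.4 in WT replicates 2 and 3. WT replicate 3 was the highest through a further peak at the end of exon 21, at FE 198, where 5xFAD replicate 2 had 9.23. A place in exon 15 was found in WT only, at FE 89.95, 100.06 and 98.9.

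Eif3d, the subunit of eIF3 that can bind the cap, was the strongest member of WT only. Its summed FE was 397, 361 and 360 in the WT samples, and no 5xFAD sample had a peak (exact p = 0.1). Most of it came from the whole of exon 10 of 15 (chromosome 15, 77962440 to 77962570, minus strand), at FE 313, 283 and 312. The exon is given with its matches to a cytidine repeat in capitals, CNNCNNCNNCNN with N for any base, read on the mRNA strand, since ac4C is often discussed with cytidine at regular spacing:
Eif3d: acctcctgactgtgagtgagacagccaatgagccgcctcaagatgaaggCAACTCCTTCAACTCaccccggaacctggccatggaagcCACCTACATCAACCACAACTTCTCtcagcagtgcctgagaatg
The first 2 exons of Eif3d carried further WT peaks at FE 24.2 to 42.8. Eif3e, another subunit, had a weak peak in WT only, at 10.1, 5.84 and 5.95, while Eif3b and Eif3l had 1 peak in 1 WT sample each, at 4.26 and 5.10.

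Eif3h, a regulatory subunit, had peaks in both genotypes but at different places. In 5xFAD replicates 1 and 3 a peak covered 132 bases of exon 2 at FE 39.4 and 119, and 5xFAD replicate 2 had none. WT peaks at the start codon, in exon 1, had an FE of 335, 235 and 260. The summed FE of 39.4, 0 and 119 in 5xFAD and of 352, 250 and 270 in WT did not overlap, yet the log2 fold change of -4.09 had an SE of 1.85 and was not called (limma adjusted p = 0.116). Without 5xFAD replicate 2 it was -2.05 and called (adjusted p = 0.0343).

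The eIF4 group binds the cap and unwinds the leader. Of its 7 listed mRNAs, 3 were in 5xFAD only, 2 in both, 1 in WT only and 1 in a single sample. All mRNAs had shares of 34.6% in 5xFAD only, 24.9% in both and 40.4% in WT only, and 7 members are too few to compare. Eif4ebp1, which holds eIF4E until mTOR phosphorylates it, had the largest fall among the called members. Its summed FE was 8.40, 11.3 and 9.26 in the 5xFAD samples and 408, 464 and 414 in the WT samples, a log2 fold change of -5.34 (SE 0.21, limma adjusted p = 2.67e-05). Both genotypes had their single peak on the same exon 1 of 3, around the start codon (chromosome 8, 27260327 to 27260550, plus strand). All 3 of the 5xFAD peaks and 0 of the WT peaks had an FDR of 100%. The 142 coding bases of that peak, from the ATG on, are rich in guanine and cytidine (73.2%) and held 6 matches to the repeat, in capitals:
Eif4ebp1: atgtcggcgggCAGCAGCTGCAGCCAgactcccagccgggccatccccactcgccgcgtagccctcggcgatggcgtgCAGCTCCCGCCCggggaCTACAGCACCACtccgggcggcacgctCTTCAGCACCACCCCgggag
Eif4ebp2, the relative that is prominent in the brain, showed the opposite split. A peak in its 3′ UTR had an FE of 128, 167 and 117 in the 5xFAD samples and was not listed in WT (exact p = 0.1). The 2 binding proteins thus had peaks at opposite ends of their mRNAs, and the difference between them was not tested.

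Eif4g1, the main scaffold of eIF4F, had a summed FE of 26.2, 37.3 and 29.9 in the 5xFAD samples and 409, 320 and 274 in the WT samples. It fell by 3.38 on the log2 scale (SE 0.26, limma adjusted p = 0.000275). No region was counted for both genotypes. In exon 10, WT replicate 1, the highest of all, had a peak at FE 112 and 5xFAD replicate 3 one at 1.51. The 5xFAD samples had a whole exon of 173 bases in the downstream part of the coding sequence (chromosome 16, 20686760 to 20686932) at FE 26.2, 37.3 and 28.3. The WT samples had instead the 5′ UTR (20672726 to 20672876) at FE 196, 215 and 165 and 2 coding exons at FE 46.7 to 59.7.

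Its relative Eif4g3 had a 5′ UTR peak at FE 745 and 774 in 5xFAD replicates 1 and 3 and none in 5xFAD replicate 2 or WT, so that the genotypes overlapped at 0 (exact p = 0.4). Eif4b and Eif4h both stimulate the eIF4A helicase and were split between the genotypes. Eif4b had a summed FE of 66.8, 91.3 and 194 in 5xFAD only, and Eif4h had 16.3, 16.6 and 19.98 in WT only (exact p = 0.1 for both). Eif4h had its peak at the stop codon in WT replicate 1 and in exon 6 in WT replicates 2 and 3. The Eif4b value of 5xFAD replicate 3 was the highest because this sample had a second coding peak at 98.5. Eif4e3, a cap-binding relative of eIF4E, had 1 peak, at FE 16.2 in WT replicate 3.

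Of the factors that act at the start codon, 3 were found in WT only (of all mRNAs, 40.4%), too few to compare. Eif1a and Eif1ax encode forms of eIF1A, which holds the scanning ribosome open, and Eif5 stimulates GTP hydrolysis by eIF2. Eif1ax had a 3′ UTR peak at FE 25.1, 25.6 and 19.7 in WT, and Eif1a 2 peaks in its 5′ UTR that summed to 24.7, 16.7 and 19.5 in WT (exact p = 0.1 for both), with an FDR of 100% for 3 of its 6 peaks. Reads of these near-identical coding sequences could be shared, although the peaks lay in UTRs, and this was not tested. Eif5 had a coding peak at FE 4.23, 4.24 and 3.86 in WT (exact p = 0.1), among the lowest values of the members.

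Eif6 keeps the large ribosomal subunit from joining too early. It was counted for 5xFAD only, with a summed FE of 17.8, 17.4 and 13.4 in the 5xFAD samples and 713, 0 and 0 in the WT samples, which overlapped (exact permutation p = 1). The 5xFAD values came mainly from a coding peak in exon 3, and all 4 5xFAD peaks had an FDR of 100%. The WT value was 1 peak listed at the start codon, where 5xFAD replicate 1 had FE 4.06. Eif5a, which helps ribosomes over stretches of proline, had 1 peak at FE 2.47 in WT replicate 1.

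Among the elongation factors, Eef1a2 had its peaks at different places in the genotypes. Such a difference was common, since only 39.2% of all 1121 mRNAs of both genotypes had a region called in both. Eef1a2, the eEF1A form of neurons and muscle, rose to a summed FE of 109, 104 and 101 in the 5xFAD samples, against 13.4, 17.5 and 11.8 in the WT samples (log2 fold change 2.81, SE 0.22, limma adjusted p = 0.000303). The 5xFAD peaks covered coding exons 5 and 6 (chromosome 2, 181150919 to 181151036 and 181149791 to 181149932, minus strand) at FE 38.0 to 45.6 and exon 7 at 19.6 to 21.4. The WT peaks covered exon 2 with the start codon (181155263 to 181155481) at FE 13.4, 13.9 and 9.04, with a weak one in exon 1. No region was shared. Eef1a1, the form found in most tissues, had only a short 5′ UTR peak of 33 bases at FE 8.40, 4.16 and 14.7 in WT (exact p = 0.1). Whether processed copies of Eef1a1 took some of its reads was not tested.

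The subunits of eEF1B recharge eEF1A with GTP. Eef1g had a whole-exon coding peak at FE 29.9, 42.9 and 41.9 in 5xFAD only (exact p = 0.1). Eef1d had a start codon peak at FE 36.6 and 69.5 in 5xFAD replicates 1 and 2 and none elsewhere. Eef1b2 had 1 peak at FE 18.1 in 5xFAD replicate 3 and 1 at 40.1 in WT replicate 1, at the same stop codon.

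Eef2, the translocase that Eef2k inhibits, was not called. The samples summed to an FE of 49.1, 66.1 and 43.6 in 5xFAD and 33.8, 48.4 and 28.8 in the WT samples, which overlapped (log2 fold change 0.52, SE 0.30, limma adjusted p = 0.203). With median centring it was 1.38 and called (adjusted p = 0.0116). A region with identical ends was found in all 6 samples, over the whole of exon 2 of 14 and a few bases before it (chromosome 10, 81177656 to 81177879, plus strand), at FE 27.5, 30.9 and 28.4 in 5xFAD and 16.5, 16.0 and 11.9 in WT, with no overlap. Beside it, 5xFAD samples had peaks at the end of the mRNA, at the stop codon with FE 12.3, 19.5 and 15.3, and WT samples had one on exon 1 with FE 17.3, 18.5 and 16.9. The exon bases of the shared peak are given because few members had a place common to both genotypes, and they held no match to the repeat:
Eef2: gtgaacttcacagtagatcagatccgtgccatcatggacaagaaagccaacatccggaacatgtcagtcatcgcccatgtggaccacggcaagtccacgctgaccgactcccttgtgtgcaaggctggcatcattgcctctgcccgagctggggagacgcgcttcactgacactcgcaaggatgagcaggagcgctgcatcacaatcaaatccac

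All 3 release factor mRNAs were listed, 1 in 5xFAD only (of all mRNAs, 34.6%), 1 in both (24.9%) and 1 in WT only (40.4%). Etf1 encodes eRF1, which reads the stop codon, and had 2 peaks that face each other across the last intron, with a summed FE of 25.5, 30.2 and 20.1 in WT only (exact p = 0.1). Gspt1 and Gspt2 encode forms of its GTPase partner eRF3. Gspt2, a gene of 1 exon, had a peak listed at its stop codon with an FE of 28.4, 39.5 and 110 in 5xFAD only (exact p = 0.1). Gspt1 had a coding peak at FE 4.11, 4.50 and 4.52 in 5xFAD and a 3′ UTR peak at 7.84 and 7.36 in WT replicates 2 and 3, with no shared region and no call (log2 fold change 0.36, SE 0.93, limma adjusted p = 0.775). The copies are much alike, and whether reads were shared between them was not tested.

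The cytosolic synthetases held the largest rise among the members. Kars encodes lysyl-tRNA synthetase, whose gene also supplies mitochondria. Its summed FE was 897, 1262 and 1014 in the 5xFAD samples and 13.5, 2.27 and 11.3 in the WT samples (log2 fold change 6.97, SE 0.63, limma adjusted p = 0.000509). By summed FE it ranked 61, 29 and 39 among the 2660, 2575 and 2654 mRNAs of the 5xFAD samples, and 2015, 2920 and 2226 among the 2750, 2938 and 2882 of the WT samples. Both genotypes had their peaks at the same 2 neighbouring coding exons. Exon 7 of 14 (chromosome 8, 112000070 to 112000189, minus strand) had an FE of 800, 1101 and 883 in 5xFAD and of 9.42 and 11.3 in WT replicates 1 and 3. Exon 6 had 96.5, 161 and 131 in 5xFAD and 4.05 and 2.27 in WT replicates 1 and 2. In 5xFAD the exon 7 peak was 57 bases long in every sample, shown in capitals within the exon, and 3 of the 4 WT peaks had an FDR of 100%:
Kars: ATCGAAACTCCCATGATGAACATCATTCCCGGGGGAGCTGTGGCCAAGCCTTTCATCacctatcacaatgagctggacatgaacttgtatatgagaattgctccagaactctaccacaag

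Mars, methionyl-tRNA synthetase, fell. Summed FE stood at 48.7, 61.2 and 67.5 in the 5xFAD samples and 341, 364 and 511 in the WT samples (log2 fold change -2.75, SE 0.26, limma adjusted p = 0.000599). The place differed too, as it did for most mRNAs of both genotypes (39.2% of them had a region called in both). The 5xFAD samples had the whole of exon 16 of 21 (chromosome 10, 127297922 to 127298053, minus strand) at FE 48.7, 61.2 and 65.0, where no WT sample had a peak. The WT samples had a stretch of 19 to 34 bases at the edge of exon 12 at FE 243, 293 and 385, where 5xFAD replicate 3 had 2.48. WT peaks in exons 9 and 10 had an FE of 48.3 to 63.4, and in WT replicates 1 and 3 they adjoined in the spliced mRNA. The 5xFAD exon, 132 bases with no match to the repeat, is shown because its peak had the same ends in the 3 samples of 5xFAD:
Mars: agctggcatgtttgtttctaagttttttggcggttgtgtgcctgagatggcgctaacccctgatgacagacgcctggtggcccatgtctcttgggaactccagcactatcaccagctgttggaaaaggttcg

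Eprs, which joins glutamyl- and prolyl-tRNA synthetase in 1 protein, was not called. Summed FE came to 101, 133 and 49.3 in the 5xFAD samples and 97.3, 90.6 and 84.0 in the WT samples, which overlapped (log2 fold change -0.05, SE 0.41, limma adjusted p = 0.931). A peak of identical ends on exon 13 of 32 (chromosome 1, 185394363 to 185394463, plus strand) had an FE of 51.1 and 58.7 in 5xFAD replicates 1 and 2 and of 83.7, 81.3 and 64.2 in WT. The end of exon 12 had a peak in 5xFAD only, at FE 49.7, 74.5 and 49.3, which adjoined the exon 13 peak in replicates 1 and 2 and stood alone in replicate 3. In WT a further peak was listed in the 3′ UTR at 13.6, 9.24 and 19.8. The bases of the exon 13 peak are given beside those of Eef2 as a place common to both genotypes:
Eprs: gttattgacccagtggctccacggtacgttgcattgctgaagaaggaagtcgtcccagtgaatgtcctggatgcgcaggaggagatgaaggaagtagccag

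Of the other 5 cytosolic synthetases, 3 were found in 5xFAD only (of all mRNAs, 34.6%) and 1 in WT only (40.4%). The last 1 was listed in a single sample, and so few members allow no reading against these shares. Wars, tryptophanyl-tRNA synthetase, had a summed FE of 453, 727 and 764 in the 5xFAD samples from peaks in exons 3 and 5, and none in WT (exact p = 0.1). Aars, alanyl-tRNA synthetase, had 455, 585 and 298 in 5xFAD, mainly from the facing ends of exons 16 and 17, and none in WT (exact p = 0.1). The Aars value of 5xFAD replicate 3 was the lowest because this sample had no peak in exon 17. Sars, seryl-tRNA synthetase, had 36.6, 48.3 and 183 in 5xFAD and none in WT (exact p = 0.1), and 5xFAD replicate 3 was high through 2 peaks that the other 5xFAD samples lacked. Hars, histidyl-tRNA synthetase, had a weak peak at FE 4.52 and 4.76 in WT replicates 2 and 3. Vars, valyl-tRNA synthetase, had 1 peak, at FE 1016 in 5xFAD replicate 1, which ranked 50 in that sample and was not seen in any other.

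3 mitochondrial synthetases were listed, 1 in 5xFAD only (of all mRNAs, 34.6%) and 2 in WT only (40.4%), too few to compare. Mars2, which charges mitochondrial methionine tRNA, had a summed FE of 619, 774 and 652 in the 5xFAD samples and 0, 0 and 5.50 in the WT samples (exact p = 0.1). It ranked 113, 77 and 91 in 5xFAD. So the mitochondrial methionyl enzyme had the higher FE in 5xFAD and the cytosolic one, Mars, the higher FE in WT, a contrast whose difference was not tested. The Mars2 peak lay within its only exon (chromosome 1, 55237635 to 55237868, plus strand), away from any exon end. The bases shared by the 5xFAD peaks, in the first part of the coding sequence, held no match to the repeat:
Mars2: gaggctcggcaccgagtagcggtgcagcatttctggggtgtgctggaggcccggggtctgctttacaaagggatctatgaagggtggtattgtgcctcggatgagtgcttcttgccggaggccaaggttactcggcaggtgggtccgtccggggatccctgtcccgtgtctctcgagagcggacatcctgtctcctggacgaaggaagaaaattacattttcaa

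Fars2, for phenylalanine, had a peak listed in the 5′ UTR at FE 177, 129 and 138 in WT only (exact p = 0.1). That place lay in no exon of the gene model used here. Nars2, for asparagine, had a summed FE of 66.8, 64.9 and 58.3 in WT only (exact p = 0.1). It came from 16 bases at the end of exon 2 and 84 bases at the start of exon 3 (chromosome 7, 96956038 to 96956053 and 96958075 to 96958158, plus strand). The intron between them is 2021 bases long, and both pieces had nearly one value, FE 33.5 and 33.3 in WT replicate 1, 32.6 and 32.3 in WT replicate 2 and 29.2 and 29.2 in WT replicate 3. The spliced sequence is shown because the lists give as 2 peaks what are 100 adjoining bases of the mRNA, with exon 3 in capitals:
Nars2: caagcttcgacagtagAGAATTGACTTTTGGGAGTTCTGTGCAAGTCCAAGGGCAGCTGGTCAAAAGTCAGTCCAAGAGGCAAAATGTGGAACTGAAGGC

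Such joined peaks were common among the members. Joined peaks face each other across an intron with both ends on the splice sites. Of 83 pairs of neighbouring peaks of 1 mRNA in 1 sample, 33 were counted as joined (39.8%, against 34.9% over all mRNAs), in 11 genes. The count missed Mars, whose peaks in exons 9 and 10 meet the same rule in WT replicates 1 and 3. Their FE was 49.4 and 48.3 in WT replicate 1 and 63.15 and 63.4 in WT replicate 3. The higher FE of a counted pair was a median of 1.24 times the lower. In the other pairs, those of Mars included, it was 2.67 times. The highest ratio of a joined pair was 8.29, for Kars in 5xFAD replicate 1. Whether such pairs are 1 stretch of RNA was not tested. Taking the highest FE of each mRNA in place of the sum left the same number of members called, 2 higher and 4 lower.

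The 42 mRNAs had 83 regions, of which 67 were called. 26 were found in 5xFAD only (38.8%, against 42.9% of all 7941 called regions), 7 in both (10.4%, against 6.26%) and 34 in WT only (50.7%, against 50.8%). The 7 shared regions lay on Eef2, Eif2b1, Eif3a, Eif4ebp1, Eprs and, with 2, Kars. So 6 of the 11 members with peaks in both genotypes had a place in common (54.5%, against 39.2% of all such mRNAs), and Eef1a2, Eif3h, Eif4g1, Gspt1 and Mars had none. With identical ends required, 2 member regions were shared.

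**Figure D3:**
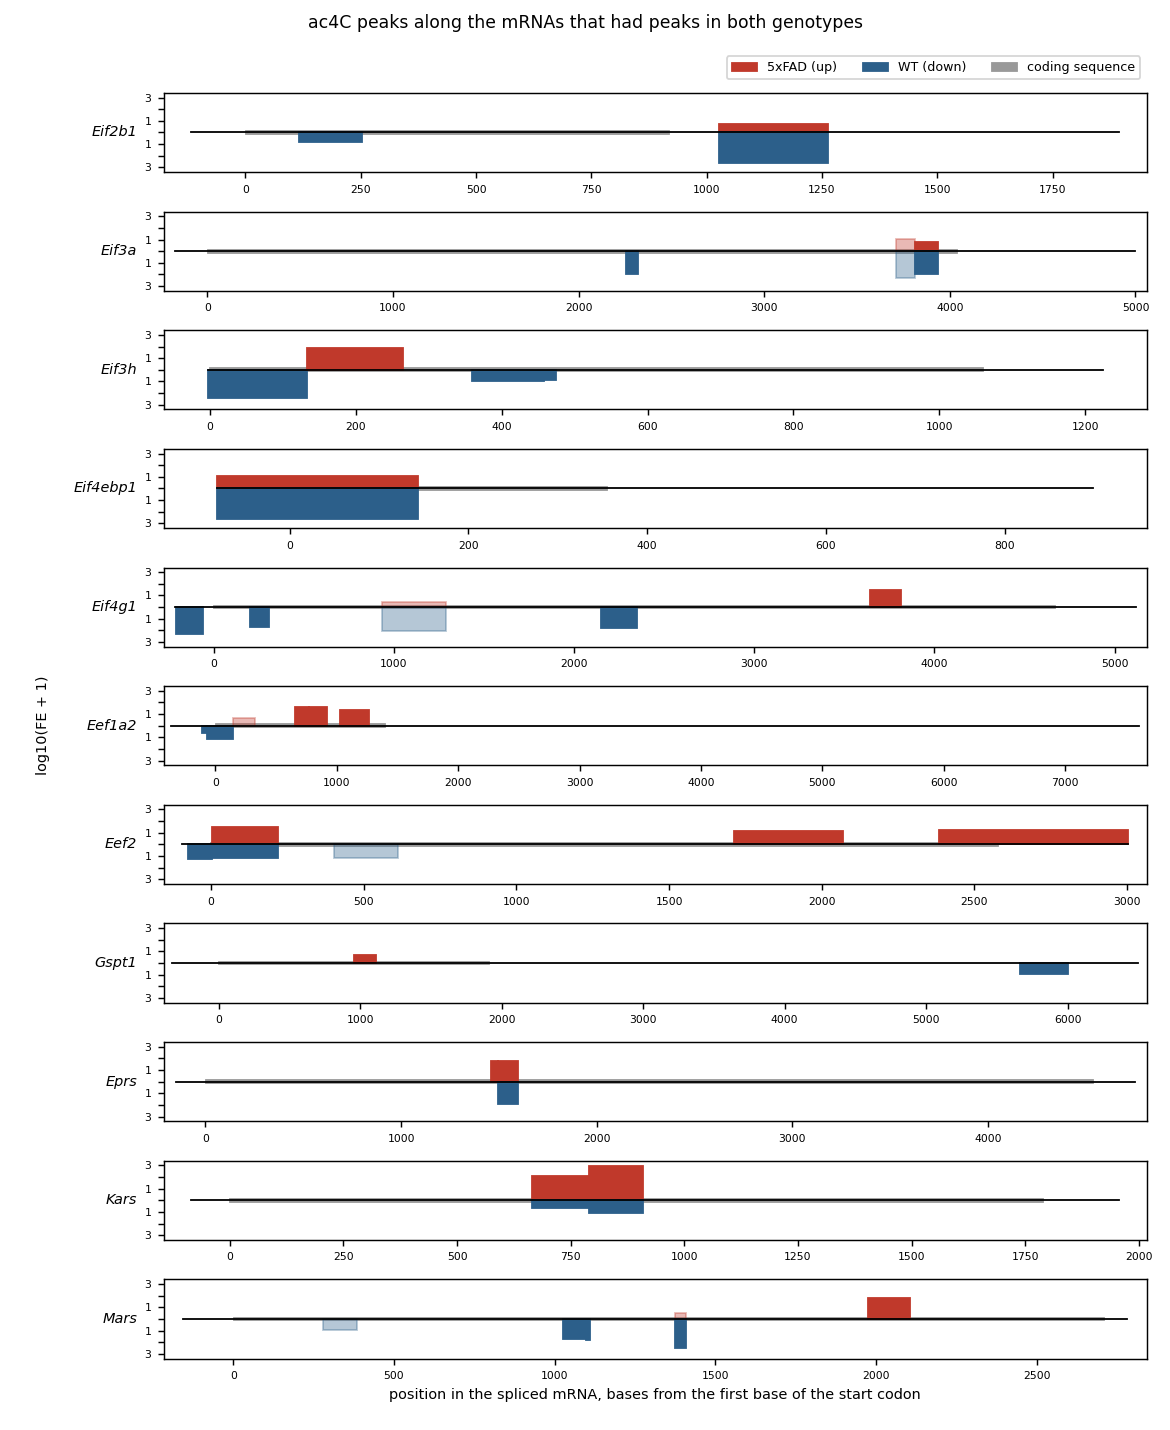
Regions with peaks along the spliced mRNA of the 11 members with peaks in both genotypes, in bases from the first base of the start codon, drawn above the line for 5xFAD and below it for WT. Bars span the merged region, but 2 of them (on Eef2 and Eif3h) were cut where the region ran past the exon. Bar height is log10 of the mean FE + 1 over the samples with a peak, and pale bars stand for 1 sample. Of 38 regions 1 (Eprs, 3′ UTR) lay outside the gene model. Eif4ebp1 and Kars have bars at the same places, and Eif4g1, Eef1a2 and Mars at different ones.

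By the position the lists give to each peak, the members differed between the genotypes at the 5′ end. Of the member peaks, 1, 0 and 1 lay in a 5′ UTR in the 5xFAD samples, against 6, 7 and 7 in the WT samples. The 5xFAD peak was that of Eif4g3. That was 1.88% ± 1.63 of the member peaks in 5xFAD and 16.0% ± 1.28 in WT (SD, n = 3 each), while over all peaks the shares were 4.25% ± 0.275 in 5xFAD and 4.44% ± 0.127 in WT. The WT peaks were on Eef1a1, Eef1a2, Eif1a, Eif3d, Eif4g1 and Fars2, of which the Fars2 peak lay outside the gene model. Start codons held 5, 3 and 2 member peaks in the 5xFAD samples and 7, 6 and 6 in the WT samples. The coding sequence held 69.1% ± 2.63 of the member peaks in 5xFAD and 51.9% ± 3.56 in WT, against 58.3% ± 0.208 and 60.2% ± 0.252 of all peaks (SD, n = 3 each). These shares rest on few mRNAs, are given as a description and were not tested.

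**Figure D4:**
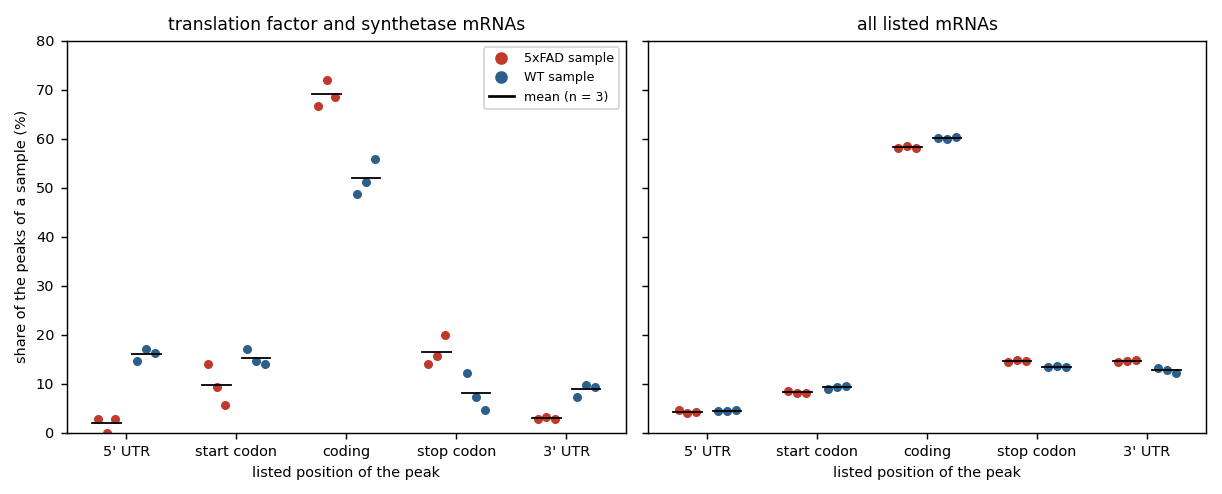
Share of the peaks of each sample by the position listed for them, for the member mRNAs (left panel) and all listed mRNAs (right panel), with 3 5xFAD samples left of 3 WT samples at each position and lines for the means. In the members the 5′ UTR share is 0% to 2.86% in 5xFAD and 14.6% to 17.1% in WT, and in all mRNAs it is 4.07% to 4.57% in 5xFAD and 4.34% to 4.58% in WT.

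In size and base composition the member regions were much like the rest. They had a median length of 127 bases (153 over 7795 called regions, with 146 left out for want of a strand), and 16.4% were under 50 bases (17.3%). A median of 53.4% of their bases were guanine or cytidine (52.9%) and 26.6% were cytidine (25.9%). At least 1 end fell on an exon end in 83.6% of them (73.1%), and both ends in 31.3% (23.2%). In the central 60 bases of regions at least that long, CNNCNNCNNCNN occurred on the mRNA strand in 29.6% of 54 member windows and 26.7% of 6122 windows over all regions, and on either strand in 42.6% and 46.0%. The WT only regions of the members were shorter, with a median of 96 bases (all WT only regions 151). Of these 34, 9 were under 50 bases (26.5%, against 17.9% of all WT only regions). Of the 5xFAD only regions, 7.69% of those on members and 17.7% of all were under 50 bases.

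The median FE of a member peak was 42.3 ± 3.23 in 5xFAD and 24.7 ± 7.66 in WT (SD, n = 3 each), while over all peaks it was 21.5 ± 1.33 in 5xFAD and 23.5 ± 0.586 in WT. The member medians of the 5xFAD samples, 38.9 to 45.3, all lay above those of the WT samples, 19.8 to 33.5. They were taken over partly different mRNAs. Member peaks with FE under 10 numbered 8, 5 and 7 in 5xFAD and 9, 15 and 14 in WT. Those with FE over 100 numbered 9, 8 and 11 in 5xFAD and 10, 9 and 8 in WT. The 11 members of both genotypes had a median log2 fold change of -2.75, towards WT. The difference in medians was not tested.

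Other genes of translation that the naming rule leaves out were taken from a list of 59 symbols, 57 of them in RefSeq. Gcn1 and Gcn1l1 name the same gene, as do Znf598 and Zfp598, and each symbol was counted on its own. Of the 59 symbols, 36 had no listed peak, Gcn1 and Znf598 among them. Peaks were in 5xFAD only for 7, in WT only for 10, in both for 5 and in a single sample for 1. Of all mRNAs, 34.6% were in 5xFAD only, 40.4% in WT only and 24.9% in both. Limma called 2 of the 5, both lower in 5xFAD, where 20.8% of all were called higher and 32.3% lower. Rps6kb1, the S6 kinase downstream of mTOR, had a summed FE of 3.13, 3.54 and 5.04 in the 5xFAD samples and 319, 324 and 228 in the WT samples (log2 fold change -5.89, SE 0.27, limma adjusted p = 4.48e-05). Cyfip2, whose protein interacts with FMRP, had 91.9, 109 and 97.3 in 5xFAD and 200, 238 and 187 in WT (log2 fold change -1.06, SE 0.20, limma adjusted p = 0.00779). Mtor, Cyfip1 and Impact were not called. The mRNAs of 5xFAD only were Farsb, Eefsec, Pabpc4, Rptor, Mknk2, Gcn1l1 and Thumpd1, at a summed FE of 7.70 (Farsb) to 482 (Mknk2). Those of WT only were Gfm2, Secisbp2, Abce1, Paip2, Mcts1, Pdcd4, Larp1, Gigyf1, Zfp598 and Gtpbp1. Nat10, the enzyme that writes ac4C, had no listed peak.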

How the data were processed

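ac4C was measured by acRIP-seq in 3 5xFAD and 3 WT hippocampus samples of mice aged 3 months, and the 6 acRIP peak lists were used. The 12 input and IgG libraries were not analysed here on their own. By the methods and the submitters' processing notes, the authors trimmed reads with cutadapt 1.9.3, aligned them to mm10 with HISAT2 2.04 and called peaks per sample with MACS, then kept exonic peaks and removed those overlapping an IgG peak. By the methods, fold enrichment is the ratio of acRIP less IgG signal to input. Whether the deposited values hold that ratio was not checked, and FE was not scaled between samples. The deposited FDR is a percent of the authors' caller and lies between 20.15 and 100, so every listed peak lies above the limit that the methods state. The deposited score of each peak was not used in a test. File starts count from 0 and were raised by 1.

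Peaks of different samples sharing at least 1 base were merged. Summed FE was tested as log2(FE + 1), a sample without a peak at 0, with limma 3.58.1 (lmFit, eBayes, Benjamini-Hochberg adjusted p under 0.05, at least 2-fold) over all 1121 mRNAs of both genotypes. Fold changes are on that scale, which understates those of low FE. Single members had a two-sided exact permutation test over 10 splits. Its p is fixed at the smallest value for a member with peaks in every sample of one genotype and none of the other. The limma step was tested on simulated data. Gene models were RefSeq GRCm38.p6, in which 41 of 42 members matched by gene ID under the same symbol and Mars is named Mars1.

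Described with every sample value were members called by limma, those with peaks in both genotypes, and, of members in all 3 samples of 1 genotype and none of the other, the 10 highest by mean summed FE in each genotype. The rest are given briefly. The members and lists were chosen with earlier results of these data known. Alternatives were leaving out each sample, stricter or looser peaks, pseudocounts of 0.1 and 10, the highest or mean FE, median centring, a filter at a mean FE of 10, another variance model, a replicate block, 1 fit over all mRNAs and stricter overlap of regions.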

Additional observations from a re-analysis of the deposited data

How the results depend on the processing

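The calls of Kars, Eef1a2, Eif4ebp1, Eif3a, Eif4g1 and Mars kept direction and side of the threshold under every alternative that could fit them. Without peaks of 100% FDR, 7 members had peaks in both genotypes, 1 was called higher, 109 of all mRNAs were called higher and 144 lower, and 2 member regions were shared. Kars was then found in 5xFAD only and Eif4ebp1 in WT only, so neither could be fitted. Eif2b1 and Gspt1 were then found in WT only, and Eif6, Hars and Eif3e in neither genotype. Shared member regions numbered 4 with FE of at least 5, 2 with a peak in all 3 samples, 13 with a peak in at least 1 sample and 2 with identical ends. Leaving out 1 sample at a time gave 10 to 13 members in 5xFAD only, 10 to 11 in both genotypes and 12 to 14 in WT only, 2 called higher and 4 to 5 lower, 188 to 231 of all mRNAs called higher and 301 to 382 lower, and 4 to 7 shared member regions (4 without WT replicate 1 and 4 without WT replicate 2). The cause was not tested.

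Eprs, which was not called, turned to 0.36 on the log2 scale without 5xFAD replicate 3, 0.001 without WT replicate 1, 0.28 with the mean FE of its peaks and 0.81 with median centring, and lay between -0.35 and 0.36 over the samples left out. Gspt1 turned to -0.68 without WT replicate 1 (limma adjusted p = 0.0431) and -0.02 with a pseudocount of 10, and was 0.39 without 5xFAD replicate 1, 1.31 with a pseudocount of 0.1 and 1.22 with median centring, none of these called. Eif3h was called with a pseudocount of 10 (-2.90, limma adjusted p = 0.0434). Over the 11 members of both genotypes, 186 values kept their direction and call, 4 gained a call and 6 turned in sign. The replicate numbers did not pair the samples: deviations of same-numbered samples correlated at -0.0004, -0.0077 and -0.035. With a replicate block, 206 of all mRNAs were called higher and 331 lower, and 2 and 4 of the members. With no read counts, a weak peak and a missing one cannot be told apart by depth.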
